A study of Mus musculus with 9 samples.

Results

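The 10 genes described here encode the fast and slow forms of the contractile machinery of skeletal muscle: the myosin heavy chains Myh4, Myh1, Myh2 and Myh7 and the paired subunits of the troponin complex, Tnnt3 and Tnnt1, Tnni2 and Tnni1, and Tnnc2 and Tnnc1. They were taken by gene symbol from count tables of 23238 unique symbols, and all 10 were found. By general knowledge 6 of them are fast-fibre forms (Myh4, Myh1, Myh2, Tnnt3, Tnni2, Tnnc2) and 4 are slow-fibre forms (Myh7, Tnnt1, Tnni1, Tnnc1). The samples were back skin of wild-type mice of the strain C57BL/6 (B6), collected 24 h after treatment, with 3 libraries in each of 3 groups. Unstripped skin is labelled with no stripping and control cream. Stripped control skin was tape-stripped, a procedure that peels off the outer epidermis, and received control cream. NGO-treated skin was tape-stripped and received a cream with nano-sized graphene oxide (NGO), a form of carbon, at 50 µg in 100 µL per mouse. The protocol places cream on stripped areas alone, so whether unstripped skin received cream is unclear. The sources used here give neither age nor sex. The labels number the replicates 1 to 3 without stating that the skin came from different animals, so each p-value rests on the spread among these samples, which may be technical.

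A muscle fibre shortens when myosin heavy chains, the motor proteins of the thick filament, pull on actin. Troponin switches this on: troponin C binds calcium, troponin I holds the thin filament off at rest, and troponin T anchors the complex to tropomyosin. Fibres are classed by the heavy chain they carry, from slow type I (Myh7) through type IIA (Myh2) and IIX (Myh1) to the fastest, IIB (Myh4), and each fibre class uses matching troponin forms. Mouse skin has its own sheet of skeletal muscle, the panniculus carnosus, beneath the fat layer.

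Several of these genes sit side by side in the mm10 genome (GENCODE M21). Myh2 (chr11:67171027-67197517), Myh1 (chr11:67200052-67224575) and Myh4 (chr11:67238029-67260446) follow one another on the plus strand, while Myh7 lies on the minus strand at chr14:54970684-54994626. Tnni2 (chr7:142441808-142444410) and Tnnt3 (chr7:142498836-142516009) lie close together on the plus strand, far from Tnnt1 on the minus strand (chr7:4504570-4516382). Tnni1 lies on the plus strand at chr1:135779434-135810989, Tnnc2 on the minus strand at chr2:164777161-164779967 and Tnnc1 on the plus strand at chr14:31208312-31211729. All 10 are protein-coding, and each count covers a whole gene rather than an exon or intron. Genes annotated on the other strand overlap Myh1, Myh2, Myh7, Tnnt3, Tnnc2 and Tnnc1, and a microRNA gene lies within Myh7 on its own strand. The sources used here do not say whether the authors counted by strand.

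The core promoters of the heavy chain with the most counts (Myh4), of a fast chain with far fewer (Myh2) and of the slow chain (Myh7) are shown to compare genes that differed so much in level. RefSeq start sites (GRCm38.p6) were available for 8 of the 10 genes, with the exceptions of Tnnt3 and Tnni2. The 150 bases before the start are printed 5′ to 3′ on the gene's strand, and capitals mark a match to the TATA box, to a MEF2-like site or to an MCAT site.
Myh4, chr11:67237662-67237811, plus strand: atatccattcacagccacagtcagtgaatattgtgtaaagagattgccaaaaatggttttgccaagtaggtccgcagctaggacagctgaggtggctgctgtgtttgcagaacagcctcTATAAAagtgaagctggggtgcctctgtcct
Myh2, chr11:67170877-67171026, plus strand: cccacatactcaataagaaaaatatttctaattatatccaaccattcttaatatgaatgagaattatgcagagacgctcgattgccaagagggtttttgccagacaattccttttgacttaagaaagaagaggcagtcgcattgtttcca
Myh7, chr14:54994627-54994776, minus strand: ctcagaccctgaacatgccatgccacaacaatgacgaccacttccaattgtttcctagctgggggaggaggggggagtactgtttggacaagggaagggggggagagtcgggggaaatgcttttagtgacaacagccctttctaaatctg

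In the 250 bases before each start, 4 motifs were searched on both strands: the TATA box (TATAAA), the E-box bound by MyoD-type factors (CANNTG), a MEF2-like site (CTA and TAG with any 4 bases between them) and the MCAT site bound by TEAD factors (CATTCC). No matches of different motifs overlapped. Myh4 held a TATA box 31 bases before its start and Myh1 one 32 bases before, and so did Tnnt1, a slow gene, at 30 bases. The TATA box was present in 12.4% of all 32851 windows of this length. Myh2 held none of the 4 motifs. Myh4 also held E-boxes 221 and 67 bases before its start, an MCAT site at 231 bases and further TATA matches at 213 and 179 bases. Myh7 at its first start site held 1 E-box, 106 bases before the start, and 1 MCAT site, 201 bases before it. The second start site of Myh7 had E-boxes at 183 and 62 bases and no MCAT site. E-boxes occurred in 66.2% of all windows, MCAT sites in 12.6% and MEF2-like sites in 3.20%, and the last occurred in none of the members' windows. These matches describe letters in a window and do not show that a factor binds there.

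Library totals ran from 2019739 to 6303322 counts. Between the groups the tissue makeup of the libraries differed along with the contractile genes. Levels are given as CPM, the usual depth-scaled counts, with library size corrected by the TMM method of edgeR. The summed level of 16 muscle reference genes used by fast and slow fibres alike (Acta1, Ckm, Ttn and others) ranged from 174 to 909 CPM in unstripped skin, from 30141 to 69861 CPM in stripped control skin and from 11681 to 27354 CPM in NGO-treated skin. Over the same groups, 6 basal epidermis markers summed to 21588 to 30209, 1277 to 2255 and 10832 to 17056 CPM, and 5 neutrophil markers to 8.50 to 11.4, 3331 to 9619 and 448 to 1502 CPM. The 5 adipocyte markers summed to 20.9 to 37.5, 517 to 795 and 327 to 638 CPM. In unstripped and stripped control skin, 6 smooth muscle markers summed to 105 to 121 and 353 to 1217 CPM (391 to 689 CPM with NGO). Most of the stripped control sum was Des, also abundant in skeletal muscle, with a mean of 690 CPM against 2.38 CPM in unstripped skin. The 6 heart muscle markers summed to 3.52 to 5.13, 11.3 to 29.1 and, with NGO, 10.8 to 35.2 CPM. Among them Ryr2 had a mean of 1.45 CPM in unstripped and 16.6 CPM in stripped control skin. Myh6, Tnnt2 and Nppa had means of 2.58 CPM or less in both groups, and of 1.68, 6.73 and 0 CPM with NGO. Tnni3 and Myl7 were at 0 in all stripped control libraries, and Tnni3 had a mean of 1.27 CPM with NGO. The part of these shifts in the results below was not tested, and in bulk tissue fewer fibres in a sample and less RNA per fibre cannot be told apart.

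Among the heavy chain members, the fast forms made up nearly all of the counts, and all 3 were far higher in stripped control skin than in unstripped skin. Outside the members, 5 developmental and special myosins summed to 61.6 to 82.5 CPM in unstripped skin and 84.4 to 194 CPM in stripped control skin. Myh4, the IIB chain, stood at 76.6, 22.0 and 256 CPM in unstripped libraries 1 to 3. It stood at 7065, 12125 and 19721 CPM in the stripped control libraries. In the NGO-treated libraries it stood at 4199, 3929 and 8873 CPM. Every stripped library, with either cream, was above every unstripped one, and the highest NGO-treated library was above the lowest stripped control library. Myh4 rose from 118 ± 123 to 12970 ± 6370.2 CPM (mean ± SD, n = 3), and its log2 fold change was 6.78 ± 0.84 (SE; edgeR quasi-likelihood test, Benjamini-Hochberg adjusted p = 0.000161).

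Myh1, the IIX chain, was measured at 27.7, 5.86 and 57.5 CPM in unstripped skin, 768, 2169 and 2682 CPM in stripped control skin and 213, 236 and 1149 CPM in NGO-treated skin. Its log2 fold change after stripping was 5.95 ± 0.91 (edgeR adjusted p = 0.000675). NGO-treated library 3 was above the lowest stripped control library, and the other 2 NGO-treated libraries were below all 3. Myh2, the IIA chain of fast oxidative fibres, was at 40.7, 8.80 and 18.5 CPM in unstripped, 254, 883 and 1021 CPM in stripped control and 170.3, 68.1 and 485 CPM in NGO-treated skin. In stripped control skin it was higher than in unstripped skin by 4.99 ± 0.81 on the log2 scale (edgeR adjusted p = 0.000956). As with Myh1, the unstripped libraries did not overlap with the stripped ones and NGO-treated library 3 reached into the stripped control range.

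The fast troponin subunits were higher after stripping as well. Tnnc2, the calcium sensor of fast fibres, stood at 53.4, 1.47 and 103 CPM in unstripped skin. It stood at 4433, 13552 and 17675 CPM in stripped control skin and at 3058, 2125 and 5069 CPM in NGO-treated skin. Unstripped library 2 was the lowest of all 9 for every fast member, with 5 Tnnc2 counts. The log2 fold change of Tnnc2 was 7.82 ± 1.13 (edgeR adjusted p = 0.000431). Tnni2, the fast inhibitory subunit, was at 36.6, 2.64 and 62.7 CPM before and 2547, 7716 and 9680 CPM after stripping with control cream, and its log2 fold change was 7.61 ± 0.97 (edgeR adjusted p = 0.000185). With NGO it stood at 1522, 1219 and 2842 CPM, where only library 3 entered the stripped control range.

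Tnnt3, the fast tropomyosin-binding subunit, was at 27.7, 2.93 and 71.0 CPM in unstripped skin, 963, 3106 and 4759 CPM in stripped control skin and 590.2, 683 and 2514 CPM in NGO-treated skin. Its log2 fold change after stripping was 6.44 ± 1.04 (edgeR adjusted p = 0.00094). In all, the 6 fast members rose, out of 7 members that passed the low-count filter, while 5.97% of the 13740 genes tested rose. The libraries of the 2 groups did not overlap, with stripped skin higher, for these 6 members, as for 13.8% of genes tested. The same held in CPM for Myh7, untested and on 1 to 7 counts per stripped control library. For Myh7, unstripped library 3 and stripped control library 3 each gave 1 count (0.293 and 0.320 CPM), so only library size set them apart. The filter left out 3 slow members, so the count over tested members does not stand for all 10. Without unstripped library 3 the log2 fold changes of Myh4, Myh1, Tnnt3, Tnni2 and Tnnc2 were larger, at 8.02, 6.79, 7.58, 8.39 and 8.75, without unstripped library 1 that of Myh2 was 5.71, and without unstripped library 2 that of Tnnc2 was 7.23.

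**Figure D1:**
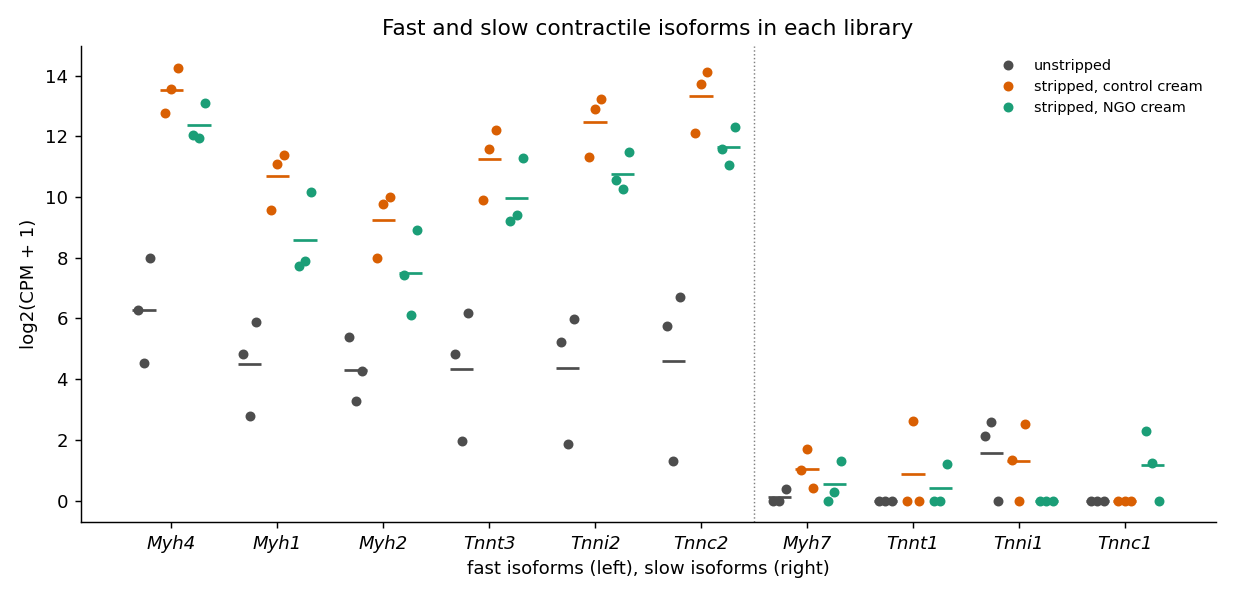
Level of each of the 10 genes in every library, as log2(CPM + 1), by group (dots, libraries; lines, mean of the 3 log values). The 6 fast genes lie lowest in unstripped skin, where Myh4 is between 22.0 and 256 CPM, and highest in stripped control skin, where it is between 7065 and 19721 CPM, while the 4 slow genes reach at most 5.17 CPM (Tnnt1 in stripped control library 2) and Tnni1, at 4.98 CPM, lies above Tnnc2, Tnni2 and Tnnt3 in unstripped library 2.

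No slow form gave more than 17 counts in any library. Myh7, the slow heavy chain, gave 0, 0 and 1 counts in unstripped skin, 2, 7 and 1 in stripped control skin and 0, 1 and 9 in NGO-treated skin. Tnnt1, the slow troponin T, was found in 2 libraries, with 16 counts in stripped control library 2 and 8 in NGO-treated library 3. Tnnc1, the troponin C of slow and heart muscle, was at 0 in all unstripped and all stripped control libraries, and gave 13, 6 and 0 counts in NGO-treated skin. These 3 genes failed the low-count filter and were not tested. In the fit without a filter none was called. For Myh7 and Tnnt1 the edgeR adjusted p was 0.521 and 0.287 in stripped control against unstripped skin. Tnnc1 had no counts in either of these groups, so that comparison cannot test it. With NGO its edgeR adjusted p was 0.324 against stripped control and 0.548 against unstripped skin.

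Tnni1, the slow inhibitory subunit, passed the filter with 10, 17 and 0 counts in unstripped skin, 3, 0 and 15 in stripped control skin and 0 in all 3 NGO-treated libraries. Its levels were 2.80 ± 2.55 CPM and 2.11 ± 2.45 CPM in unstripped and stripped control skin. The log2 fold change between them was -0.40 ± 2.12 (edgeR adjusted p = 0.939). With NGO against stripped control skin its adjusted p in edgeR was 0.214 and the groups overlapped at 0. A Tnni1 fold change against the NGO-treated libraries, all at 0, is no bound and is not given. Of its 3 highest libraries by count, 2 were the unstripped ones with the fewest fast counts.

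Set against its fast partner, each slow gene took a small share of the pair in stripped skin. Shares are given with the exact Clopper-Pearson 95% interval or, for a count of 0, with the share that 3 counts would give. Both cover counting error only, as the libraries' counts are not known to be freed of PCR copies. Myh7 took 0.0127%, 0.0149% and 0.00136% of the heavy chain counts (Myh1, Myh2, Myh4 and Myh7) in stripped control libraries 1 to 3. With NGO it took 0 (up to 0.0197%), 0.00543% and 0.0142%. The 2 sets of values overlap. Tnnt1 took at most 0.166% of the Tnnt1 and Tnnt3 counts (interval 0.0951% to 0.27%), in stripped control library 2. In stripped control library 3 it gave 0 of 14889 counts, a limit of 0.0201%.

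Tnnc1 gave 0 of 105843 counts of the troponin C pair summed over the 3 stripped control libraries. In NGO-treated skin it took 0.128% (13 of 10194) and 0.0649% (6 of 9242) in libraries 1 and 2, and 0 of 30632 in library 3 (up to 0.00979%). Its annotated locus overlaps Nisch on the other strand. Tnni1 took the highest shares of any slow gene, in 2 unstripped libraries. Over the 3 unstripped libraries it took 8.55% (10 of 117 counts, interval 4.17% to 15.2%), 65.4% (17 of 26, interval 44.3% to 82.8%) and 0 of 214 (up to 1.40%). In stripped control skin its share was 0.0606%, 0 (up to 0.0126%) and 0.0495%. In unstripped skin the other slow shares were limited by depth: 0 of 424 and 0 of 125 heavy chain counts allow up to 0.708% and 2.40% Myh7, and 0 of 5 troponin C counts in library 2 sets no useful limit.

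Summed over all 10 genes, slow counts were 1.29%, 10.2% and 0.0515% of the total in unstripped skin, where the fast counts were only 768, 149 and 1941. They were 0.0160%, 0.0188% and 0.00921% in stripped control skin and 0.0400%, 0.0195% and 0.0134% in NGO-treated skin. The stripped groups overlapped. Unstripped libraries 1 and 2 were above every stripped library, but all of their slow counts (10 and 17) were of Tnni1. The value of unstripped library 3 was a single count, of Myh7, with an interval of 0.0013% to 0.287% that covers all 6 stripped values. In number of counts the slow sum stayed between 1 and 23 (10, 17 and 1, then 5, 23 and 16, then 13, 7 and 17), while the fast sum rose to between 31157 and 173767 in stripped control skin.

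Within the heavy chain members, Myh4 led in all 9 libraries and took a larger share in stripped skin. Its share of the heavy chain counts was 52.8%, 60.0% and 77.1% in unstripped skin. It was 87.4%, 79.9% and 84.2% in stripped control skin and 91.6%, 92.8% and 84.4% in NGO-treated skin. Each stripped library was above each unstripped one, and the 2 stripped groups overlapped. The closest pair was unstripped library 3 (interval 74.5% to 79.5%) and stripped control library 2 (79.5% to 80.2%). As means the shares were 63.3% ± 12.5, 83.8% ± 3.75 and 89.6% ± 4.53 (SD, n = 3).

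The other fast chains took a correspondingly smaller share in stripped skin. Myh1 took 19.1%, 16% and 17.3% in unstripped, 9.49%, 14.3% and 11.5% in stripped control and 4.65%, 5.58% and 10.9% in NGO-treated skin, so every unstripped library was above every stripped one. Myh2 took 28.1%, 24.0% and 5.56% in unstripped skin, 3.14%, 5.82% and 4.36% in stripped control skin and 3.72%, 1.61% and 4.61% in NGO-treated skin. Unstripped library 3 fell within the stripped range, and the other 2 were well above it. That library held 1134 heavy chain counts, against 424 and 125 in libraries 1 and 2. No p is given for these shares, because the members were chosen with results known.

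**Figure D2:**
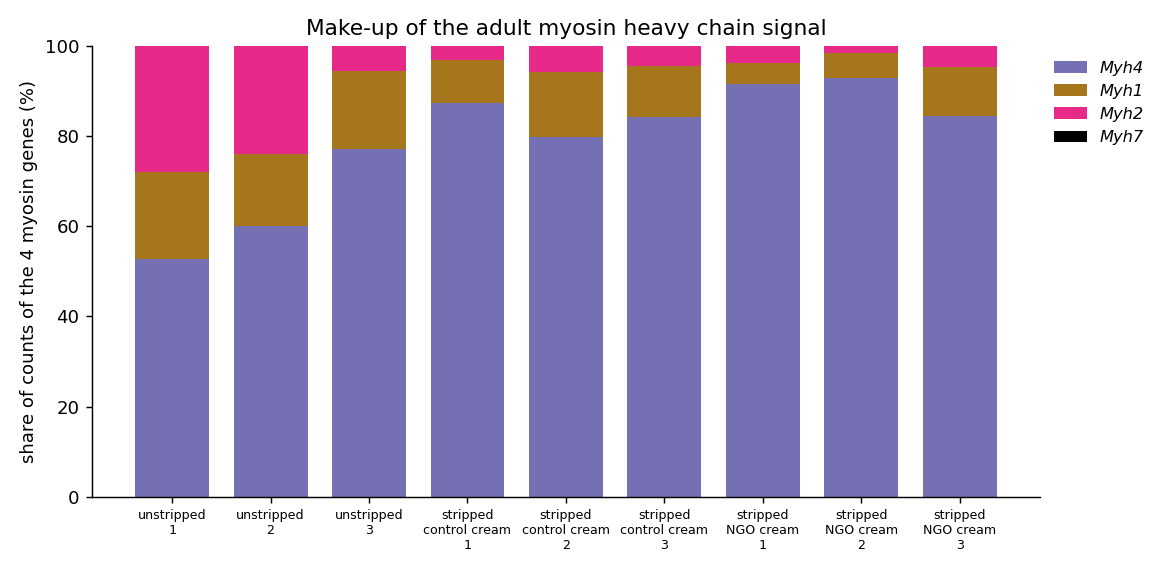
Makeup of the adult myosin heavy chain counts in each library, as stacked percentages of Myh4, Myh1, Myh2 and Myh7 that add to 100. Myh4 takes 52.8% to 77.1% in unstripped skin and 79.9% to 92.8% in the 6 stripped libraries, and Myh7 is too small to see.

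The order of the levels was alike in both stripped groups. Levels are compared between genes as CPM without division by length, since a 3′ tag library yields about 1 tag per transcript. By mean, the order was Myh4, Tnnc2, Tnni2, Tnnt3, Myh1, Myh2 and then the slow genes. In NGO-treated skin each fast gene was above the next in 3 of 3 libraries. In stripped control skin the same held except for Myh4 above Tnnc2, seen in 2 of 3 libraries, so these neighbours did not differ beyond their spread. In unstripped skin Myh4 was above Tnnc2 in 3 of 3, and the fast genes after it changed places between libraries. Fast heavy chain counts per fast troponin count were 1.23, 5.21 and 1.40 in unstripped skin, 1.02, 0.623 and 0.729 in stripped control skin and 0.886, 1.05 and 1.01 with NGO. Unstripped skin was thus above both stripped groups, with library 2, the poorest in these counts, standing apart.

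Near-identical heavy chain genes could exchange reads. In the last 500 bases of each transcript, where 3′ tags fall, 34 of 451 stretches of 50 bases in Myh4 also occurred in another myosin or troponin gene, and 72 of 451 in Myh1 and in Myh2. For Myh7 the number was 230, and for each troponin it was 0. The sources used here do not say how reads with several matches were treated, so the heavy chain shares, and the few Myh7 counts most of all, carry that doubt, while the troponin pairs share no such stretch at their ends.

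To ask whether the isoforms changed beyond the amount of muscle RNA, the counts were also fitted with library size replaced by the summed counts of the 16 reference genes. On this scale most genes of the skin appear lower after stripping, since the reference itself rose: 92.2% of genes tested were called lower and 0.102% higher. Among the members Tnni1 was called lower (edgeR adjusted p = 0.00343) and no fast member was called. Myh4 was at 109, 126 and 282 counts per 1000 reference counts in unstripped skin, 234, 213 and 282 in stripped control skin and 356, 336 and 324 in NGO-treated skin. The log2 difference of stripped control from unstripped skin was 0.50 ± 0.86 (edgeR adjusted p = 0.572). A rise of 6.78 on the CPM scale thus went along with a far smaller, uncalled difference per reference count, and these wide errors do not show that the isoform makeup was the same.

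Per reference count, Tnnc2 and Tnni2 were higher in every stripped control library without being called. Tnnc2 was at 75.9, 8.40 and 114 counts per 1000 reference counts in unstripped skin and 147, 238 and 253 in stripped control skin, a log2 difference of 1.67 ± 0.91 (edgeR adjusted p = 0.0696). Tnni2 went from 52.1, 15.1 and 69.0 to 84.5, 136 and 139 (1.38 ± 0.95, edgeR adjusted p = 0.152). For both the groups did not overlap, as for 0.626% of genes tested in this direction. Tnnt3 was at 39.4, 16.8 and 78.0 and then 32.0, 54.6 and 68.1, which overlap (0.19 ± 1.0, edgeR adjusted p = 0.853).

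Myh2 per reference count was lower in all stripped control libraries. It was at 57.9, 50.4 and 20.3 counts per 1000 reference counts in unstripped skin, 8.43, 15.5 and 14.6 in stripped control skin and 14.4, 5.83 and 17.7 in NGO-treated skin. The log2 difference after stripping was -1.73 ± 1.25 (edgeR adjusted p = 0.173), and 89.9% of genes tested were likewise lower without overlap. Myh1 overlapped between the groups, at 39.4, 33.6 and 63.2 against 25.5, 38.1 and 38.4 (-0.42 ± 1.09, edgeR adjusted p = 0.705). The IIA chain thus differed in the opposite direction from Tnnc2 and Tnni2, in values that the test did not separate.

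Which reference genes were used mattered here. Ttn, Ryr1 and Sgca made up 48.8%, 78.2% and 38.9% of the reference counts in unstripped skin and 18.1% to 31.7% in the 6 stripped libraries. Without Acta1 and Ckm in the reference, Tnni2 and Tnnc2 were called higher after stripping, at 2.20 and 2.45 on the log2 scale (edgeR adjusted p = 0.014 and 0.00674). Without Ttn, Ryr1 and Sgca, an alternative chosen after seeing the data, no fast member was called, and the signs of Myh4 and Tnnt3 turned to -0.42 and -0.51. Leaving out unstripped library 3 alone gave a called Tnnc2 at 2.30 (edgeR adjusted p = 0.0272), and leaving out unstripped library 2 ended the Tnni1 call.

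**Figure D3:**
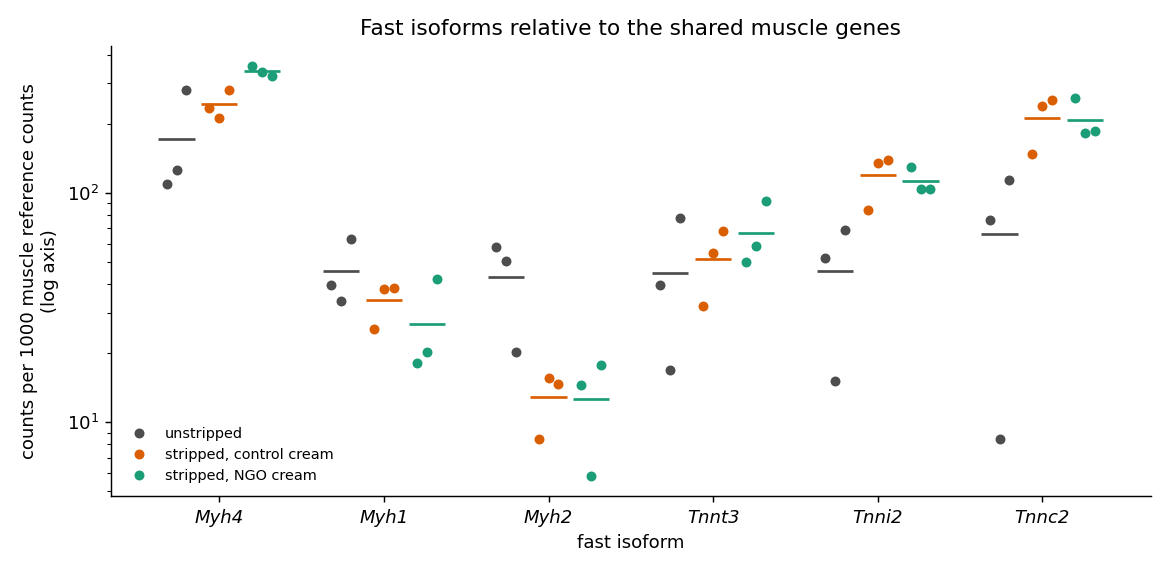
Counts of each fast member per 1000 counts of the 16 muscle reference genes in every library, on a log axis (dots, libraries; lines, arithmetic mean of 3). Tnnc2 lies at 8.40 to 114 in unstripped and 147 to 253 in stripped control skin, Myh2 at 20.3 to 57.9 and 8.43 to 15.5, and Myh4 overlaps between these 2 groups.

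With NGO the fast members were lower by mean than in stripped control skin, and none was called. Myh4 was at 12970 ± 6370.2 CPM with control cream and 5667 ± 2780 CPM with NGO, and the log2 fold change was -1.19 ± 0.66 (edgeR adjusted p = 0.325). Tnni2 showed the largest difference of the fast members, from 6647 ± 3685 to 1861 ± 863 CPM (-1.84 ± 0.74, edgeR adjusted p = 0.173). Myh1 (-1.81 ± 0.76), Tnnc2 (-1.80 ± 0.86), Myh2 (-1.58 ± 0.69) and Tnnt3 (-1.22 ± 0.83) had edgeR adjusted p of 0.185, 0.248, 0.206 and 0.433. All members overlapped between these groups, where 16.3% of genes tested were higher and 8.92% lower without overlap. The fit called 0 of 7 tested members, with 4 at an unadjusted p under 0.05 (all lower), and DESeq2 and limma-voom called 0 as well. Of all genes tested 5.05% were called, 1.18% lower.

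Myh1 was called with the replicate number as a block (-2.22, edgeR adjusted p = 0.0492). Whether the numbers pair the samples could not be settled. NGO-treated library 3 was the highest of its group for the 6 fast members. Without it the log2 fold changes of Myh1, Myh2 and Tnnt3 were -3.12, -2.66 and -2.28, still not called (edgeR adjusted p = 0.0635, 0.0813 and 0.221). Per reference count the differences between the stripped groups were small against their errors, between -0.34 ± 1.09 for Myh1 and 0.48 ± 0.86 for Myh4 among the fast members. In the reference-scaled edgeR fit 0 members were called and 0 had an unadjusted p under 0.05, while 16.4% of genes tested were called. Myh4 per reference count did not overlap, with NGO higher, as for 40.8% of genes tested.

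Against unstripped skin, the 6 fast members were also higher with NGO. This comparison shares the unstripped libraries with the one after stripping and is no independent repeat of it. Myh4 was 5.58 ± 0.80 higher on the log2 scale (edgeR adjusted p = 0.00209), Tnnc2 6.02 ± 1.04 (0.00573), Tnni2 5.77 ± 0.89 (0.003), Tnnt3 5.22 ± 0.98 (0.00952), Myh1 4.13 ± 0.84 (0.0155) and Myh2 3.42 ± 0.75 (0.0269). No fast member overlapped between these groups. Of all genes tested 2.06% were called higher, and 11.9% were higher without overlap. These calls depended on the settings. With no low-count filter none of the 6 was called, at edgeR adjusted p from 0.068 for Myh4 to 0.25 for Myh2, and limma-voom did not call Myh1 or Tnnt3 (adjusted p = 0.0877 and 0.0734). Myh1 was not called without unstripped library 1 or NGO-treated library 3 (edgeR adjusted p = 0.0823 and 0.0737), Myh2 not without unstripped library 2 or 3 or NGO-treated library 3 (0.103, 0.13 and 0.129), and Tnnt3 not without unstripped library 1 (0.0568).

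Without unstripped library 3 the log2 fold changes with NGO against unstripped skin were 6.83 for Myh4, 4.98 for Myh1, 6.36 for Tnnt3, 6.56 for Tnni2 and 6.96 for Tnnc2. Without unstripped library 1 that of Myh2 was 4.14, and without NGO-treated library 3 those of Myh1, Myh2 and Tnnt3 were 2.87, 2.40 and 4.22. Per reference count, Myh4, Tnni2 and Tnnc2 were higher without overlap with NGO, at 0.97 ± 0.87, 1.29 ± 0.95 and 1.65 ± 0.91 on the log2 scale, and Myh2 was lower without overlap, at -1.76 ± 1.25. None of these 4 was called (edgeR adjusted p = 0.271, 0.182, 0.0766 and 0.17), on a scale where 0.0728% of genes tested were called higher. Without overlap 0.531% of genes tested were higher and 88.8% lower. Tnni1 was called lower on this scale (edgeR adjusted p = 0.000264), as were 87.6% of genes tested. Without Acta1 and Ckm in the reference Myh4, Tnni2 and Tnnc2 were called higher, at 1.78, 2.06 and 2.39 (edgeR adjusted p = 0.0341, 0.0239 and 0.0105), and without unstripped library 3 Tnnc2 was, at 2.28 (0.0313).

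**Figure D4:**
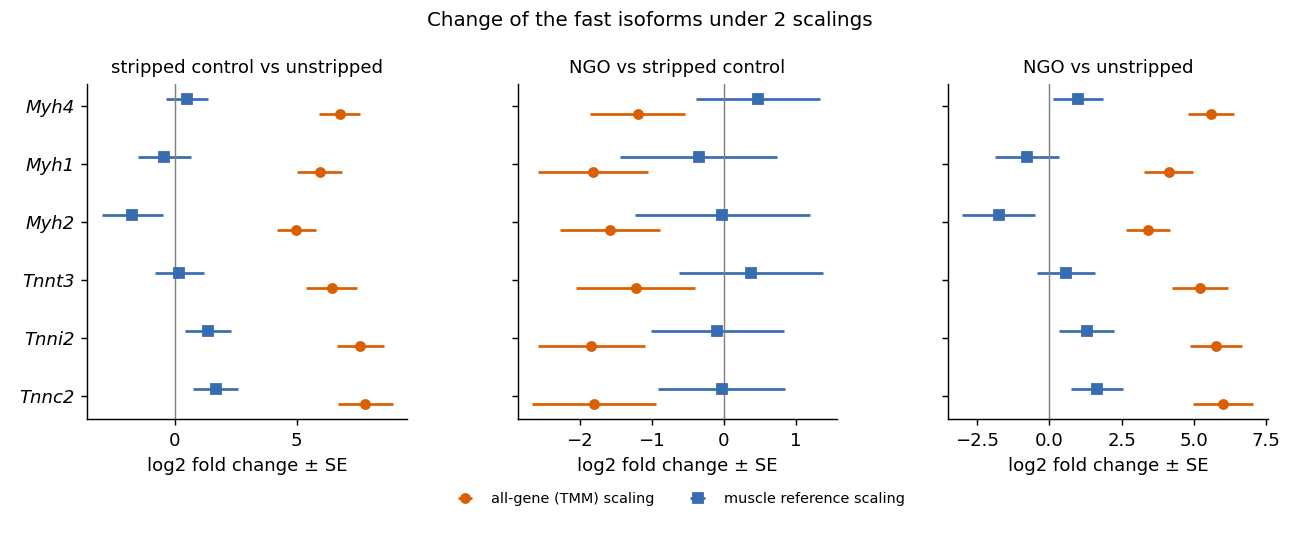
Log2 fold change ± SE of the 6 fast members in each of the 3 comparisons, scaled by library (TMM) and by the muscle reference. Tnni1, the tested slow member, is not shown. In stripped control against unstripped skin Myh4 is at 6.78 ± 0.84 by library and 0.50 ± 0.86 by reference, and the fast genes lie between 4.99 and 7.82 by library and between -1.73 and 1.67 by reference.

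Other genes of muscle moved with the fast members after stripping. The lists below were taken from general knowledge and were chosen with earlier results of these data known. All 16 muscle reference genes rose in stripped control against unstripped skin, with a median log2 fold change of 6.59 beside -0.20 over all genes tested. Among them were Acta1, skeletal muscle actin (7.26 ± 1.02, edgeR adjusted p = 0.000357), and Ttn, the giant spring protein titin (5.91 ± 0.75, edgeR adjusted p = 0.000177). All 12 other fast-fibre genes rose, with a median of 6.56. They include Atp2a1, the calcium pump of fast fibres (6.40 ± 0.80, edgeR adjusted p = 0.000163), and Pvalb, their calcium buffer parvalbumin (7.40 ± 0.94, edgeR adjusted p = 0.000191).

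Slow-fibre genes outside the members split into those that rose and those that did not. Of 11, 9 were tested and 6 rose (Mybpc1, Myoz2, Csrp3, Fhl1, Ankrd2, Sln), and the median over all 9 was 5.57. Csrp3 and Ankrd2, which sense strain at the Z-disc and in the nucleus, rose by the most, at 8.71 ± 1.07 and 9.98 ± 1.16 (edgeR adjusted p = 0.000147 and 0.00011). These 2 were also called higher per reference count (2.52 ± 1.16 and 3.49 ± 1.60, edgeR adjusted p = 0.0322 and 0.0324). Tpm3, the slow tropomyosin gene, and Atp2a2, the slow-fibre calcium pump, both of which other skin cells also express, were at -0.46 ± 0.32 and -0.60 ± 0.33 (edgeR adjusted p = 0.411 and 0.267). The slow light chain genes were nearly without counts: Myl2 was at 0 in all 9 libraries and Myl3 gave 16 counts, all in stripped control library 3. These 2 light chain genes were thus about as scarce in these libraries as Myh7 itself. Mybpc1 of the same list was not, with means of 246 CPM in stripped control and 62.1 CPM in NGO-treated skin.

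All 7 genes of oxidative fibre metabolism rose as well, with a median of 5.95. Cox6a2, the muscle form of a cytochrome oxidase subunit, changed by 8.10 ± 1.12 and Slc25a4, the mitochondrial ADP/ATP carrier, by 4.08 ± 0.43 (edgeR adjusted p = 0.000328 and 6.01e-05). Of 10 regulators linked to fibre type, 7 were tested and 2 rose, Mef2c (4.19 ± 0.47, edgeR adjusted p = 8.2e-05) and Tbx15 (4.92 ± 1.36, edgeR adjusted p = 0.0277). Sox6, a repressor of slow-fibre genes, was at -0.28 ± 0.47 (edgeR adjusted p = 0.775). Of 5 developmental and special myosins only Myh8, the perinatal heavy chain, rose (4.25 ± 0.90, edgeR adjusted p = 0.00629), from 4.95 ± 3.57 to 95.1 ± 51.3 CPM, and Myh14, a non-muscle heavy chain, was at -1.47 ± 0.80 (edgeR adjusted p = 0.258).

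Markers of other tissues moved too. Of 6 smooth muscle markers, Acta2 and Des rose, and Des is also abundant in skeletal muscle. None of the 2 tested heart markers was called by edgeR, with 1 at an unadjusted p under 0.05, and DESeq2 and limma-voom each called 1. Of 6 basal epidermis markers 5 fell, among them Krt5 (-3.31 ± 0.33) and Krt14 (-3.10 ± 0.45). Of 3 tested adipocyte markers 2 rose, Fabp4 and Cfd, the most abundant, by 3.58 ± 0.38 and 6.28 ± 0.47. Adipoq was not called (1.77 ± 0.96, edgeR adjusted p = 0.258). Of 5 neutrophil markers 3 rose, among them S100a8 and S100a9, the most abundant, by 10.05 ± 0.84 and 10.39 ± 0.70. Csf3r and Cxcr2 were not called (edgeR adjusted p = 0.907 and 0.117). Between unstripped and stripped control skin, Fabp4, Cfd, S100a8 and S100a9 thus changed in the same direction as the fast members. The 5 basal epidermis markers changed in the opposite direction.

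With NGO against stripped control skin few genes of the muscle lists were called by edgeR. Of the 16 reference genes Klhl41, a thin-filament stabiliser, was lower (-2.18 ± 0.42, edgeR adjusted p = 0.012), with a list median of -1.56 beside 0.07 over all genes. None of the 12 other fast-fibre genes was called by edgeR (median -1.31), with 5 lower at an unadjusted p under 0.05, while DESeq2 called 1 and limma-voom 3 lower. Of the other slow-fibre genes Atp2a2 was higher (1.37 ± 0.34, edgeR adjusted p = 0.0345), and of the oxidative genes Slc25a4 was lower (-1.66 ± 0.39, edgeR adjusted p = 0.029). In edgeR 11 reference, 4 other slow-fibre and 7 oxidative genes were lower at an unadjusted p under 0.05. Called lower from these lists were 2, 2 and 3 genes by DESeq2 and 5, 4 and 4 by limma-voom. In each of the 3 tools 1 other slow-fibre gene was higher. Of the basal epidermis markers 5 of 6 were higher and of the neutrophil markers 3 of 5 lower.

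With NGO against unstripped skin 13 of 16 reference genes, 10 of 12 other fast-fibre genes, 5 of 9 tested other slow-fibre genes and 6 of 7 oxidative genes were higher. The list medians were 5.03, 5.06, 3.58 and 4.16, beside -0.07 over all genes. Mef2c alone of the 7 tested regulators was higher (2.87 ± 0.44, edgeR adjusted p = 0.00294). None of the 5 developmental and special myosins was called by edgeR, with an unadjusted p under 0.05 for 1 that was higher and 1 that was lower, and neither DESeq2 nor limma-voom called any.

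The genes whose pattern over the 9 libraries was most like that of the summed fast members were themselves muscle genes. Likeness was the root mean square difference between centred log2(CPM + 1) profiles, over 9366 genes with a mean of at least 10 CPM. Ckm, muscle creatine kinase, was closest at 0.15, followed by Tcap (0.39), Ldb3 (0.39), Smpx (0.40) and Pvalb (0.40), where the median over all candidates was 3.63. Around the summed slow members the nearest genes were Phtf2 (0.40), Cadps2 (0.41), Cstf1 (0.43), Usp49 (0.45) and Phpt1 (0.46), with a median of 1.21. The slow sum rested on 1 to 23 counts a library, between 0.293 and 7.43 CPM, so its profile carries a large counting error.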

How the data were processed

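For each of 9 libraries the authors deposited raw counts by gene symbol, with 23282 entries and no row without a gene name. The 44 repeat entries were kept apart and none is a member. Per the labels' protocols, RNA was isolated with Trizol and 500 ng went into Lexogen QuantSeq 3′ tag libraries. The submitters' processing notes name Bowtie2, bedtools and mm10, with no version. Tags come from transcript ends, so counts were not divided by length. Library totals ran from 2019739 to 6303322 counts, and the few muscle counts in unstripped skin make its shares imprecise.

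Counts of all 9 libraries were fitted in R 4.3.3 with the edgeR 4.0.16 quasi-likelihood test (robust, TMM, filterByExpr), with Benjamini-Hochberg adjustment over 13740 genes and calls at an adjusted p under 0.05. The second fit used the summed reference counts as library size. Both were tested on simulated data. Alternatives used RLE and upper-quartile scaling, other filters, DESeq2 1.42.0, limma-voom (limma 3.58.1), a replicate block, fits of 2 groups, other references and leaving out each library. Members and lists were chosen with earlier results of these data known. Named were all members, the 2 genes with the highest mean CPM of each list and the 5 genes nearest to each sum; other list genes were named after their values were seen.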

Additional observations from a re-analysis of the deposited data

How the results depend on the processing

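The 6 fast members were called in stripped control against unstripped skin under every alternative tried. With NGO against unstripped skin 6 were called, 0 with no low-count filter, 4 with limma-voom and 4 to 6 when a library was left out. With NGO against stripped control skin 0 were called, and 1 with the replicate block. Relative to the muscle reference, 1 member was called after stripping, 3 without Acta1 and Ckm, 0 with a filter of 20 counts in 3 libraries (which removes Tnni1) and 0 to 2 with a library left out. With NGO against unstripped skin the same counts were 1, 4, 0 and 1 to 2, and 2 with the block. Genes called numbered 1870, 694 and 345 in stripped control against unstripped, NGO against stripped control and NGO against unstripped skin, 2976, 1721 and 756 with DESeq2 and 1159 to 2124, 206 to 929 and 214 to 495 with a library left out. In the last 2 comparisons limma-voom called 414 and 1352 and a fit of 2 groups 118 and 602. With NGO against stripped control skin 532 were higher and 162 lower, 428 and 215 with RLE scaling, which moved the median of all genes by -0.12 (0.13 after stripping). Replicate numbers showed no clear pairing of the samples. The r was between -0.06 and 0.10 for 9 same-numbered pairs and between -0.15 and 0.07 for 18 other pairs. With 3 libraries a group these values cannot exclude a pairing. The block called 1650, 559 and 313 genes. After stripping the block left Tnni1 uncalled relative to the reference (edgeR adjusted p = 0.0818) and called Tnnc2 (1.94, 0.0215), and with NGO against unstripped skin it called Tnnc2 (1.89, 0.0252). Signs turned only for uncalled values. Tnni1 after stripping ranged from -1.92 to 0.29 with a library left out. Relative to the reference, after stripping, Myh4 and Tnnt3 were at -0.42 and -0.51 without Ttn, Ryr1 and Sgca, Myh1 at 0.47 without Acta1 and Ckm, and Tnnt3 at -0.19 to 0.86 with a library left out. With NGO Tnnt3 was at -0.0566 against unstripped skin without Ttn, Ryr1 and Sgca. Against stripped control skin Myh2 and Tnnc2 were at 0.051 and 0.0134 there, and with a library left out Myh2 ranged from -0.34 to 0.32, Tnnc2 from -0.23 to 0.12 and Tnni2 from -0.29 to 0.0308. The cause of these changes was not tested. Where a left-out library leaves a group of 2, its spread is pooled with the other groups.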
